A study of Mus musculus with 20 samples.

Results

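The cell cycle genes described here are 46 mouse genes chosen by name for their known role in cell division, with earlier results of these data known. Of these, 28 act in mitosis or are made for it, and 18 act in S phase or in the preparation for it; the 2 sets are described apart. The deposited expression table had a row for 44 of the 46 genes, which are all 28 mitosis genes and 16 of the 18 S phase genes. Cdt1 and Gins2 were not found in it and are not analysed here. Where a gene had several rows, the row with the highest mean over the 6 groups was taken. All 44 genes averaged at least 1 FPKM (fragments per transcript length and sequenced fragments, so that levels of different genes can be set side by side) over the 6 groups and were among the 13105 named genes compared, out of 46744 rows. Cdc6 was the lowest of them, with a mean of 1.79 FPKM, and Top2a was the highest, with a mean of 33.3 FPKM. The rows of Top2a, Mcm7 and Foxm1 also carried other symbols, so their values belong to the whole row. That of Foxm1 includes Nrip2, which is not among the genes found to overlap Foxm1, so its values are not those of Foxm1 alone. The loci of Ccna2, Cdc20, Cdca8, Kif20a, Nusap1, Prc1, Ube2c, Ccne2, Mcm7 and Tk1 overlap a protein-coding gene on the other strand, and the sources used here do not say whether counting used the strand.

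Cells copy their DNA in S phase and separate the copies in mitosis. Genes for DNA synthesis are switched on by E2F factors as a cell leaves G1, and genes for the spindle, the centromeres and chromosome separation are switched on later, through the MuvB complex with B-Myb and FoxM1. In skin, most dividing cells are basal keratinocytes of the epidermis and matrix cells of growing hair follicles, and activated lymphocytes also divide. Bulk RNA measures a mixture of all these cells, so fewer cells of a type and less RNA per cell cannot be told apart.

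Total RNA of whole skin of C57BL/6 mice was depleted of ribosomal RNA and sequenced in 20 samples. The conditional knockout (cKO) samples were labelled Sod2-/-, lacking the mitochondrial superoxide dismutase, and came from mice of 300 days (3 samples) and 100 days (3 samples). Their controls were labelled Sod2+/+ and came from mice of 300 days (3 samples) and 100 days (2 samples). A further pair of control groups, also Sod2+/+, came from mice of 700 days (4 samples) and 50 days (5 samples) and carried another title prefix. The labels used here do not say in which cells Sod2 was deleted, nor whether the prefixes are batches, and no ratio was taken across the prefixes.

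The deposited table gave 1 FPKM value per group, so no gene had a replicate spread, no test could be made and the read depth is unknown. A difference was expressed as the log2 ratio of (FPKM + 1), which understates the change of low genes. Counts of higher and lower genes use a ratio of at least 1 in size, with a size of 0.5 as a second count. Sod2 itself stood at 16.8 FPKM in cKO and 23.5 FPKM in control skin at 300 days, and at 17.6 FPKM in cKO and 27.7 FPKM in control skin at 100 days. The row of the X-linked transcript Xist, which holds 3 symbols, was at 17.2 FPKM in cKO and 2187 FPKM in control skin at 300 days, at 4.92 FPKM in cKO and 1141 FPKM in control skin at 100 days, and at 3.69 FPKM at 700 and 2580 FPKM at 50 days. The Y-linked Ddx3y was at 21.4 FPKM in cKO and 0.0556 FPKM in control skin at 300 days, at 23.1 FPKM in cKO and 0.0263 FPKM in control skin at 100 days, and at 21.5 FPKM at 700 and 0.243 FPKM at 50 days. Genotype and age therefore ran together with a sex-linked difference in every main comparison, and their effects cannot be told apart.

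All 28 mitosis genes were higher in cKO than in control skin at 300 days, whereas 48.6% of all genes compared were. Their median log2 ratio was 0.79, against -0.01 over all genes. A ratio of at least 1 was reached by 5 of the 28 (Top2a, Bub1, Cenpf, Plk1 and Bub1b), which is 17.9%, beside 2.01% of all genes. A ratio of at least 0.5 was reached by 22 of the 28, beside 10.6% of all genes. No mitosis gene was lower by a size of 1, beside 5.28% of all genes. The 16 S phase genes had a median of 0.19, none of them reached a size of 1 in either direction, and 2 (Tk1 and Mcm7) reached 0.5. Of these 16 genes, 9 were higher and 7 lower, beside 51.3% of all genes lower.

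**Figure D1:**
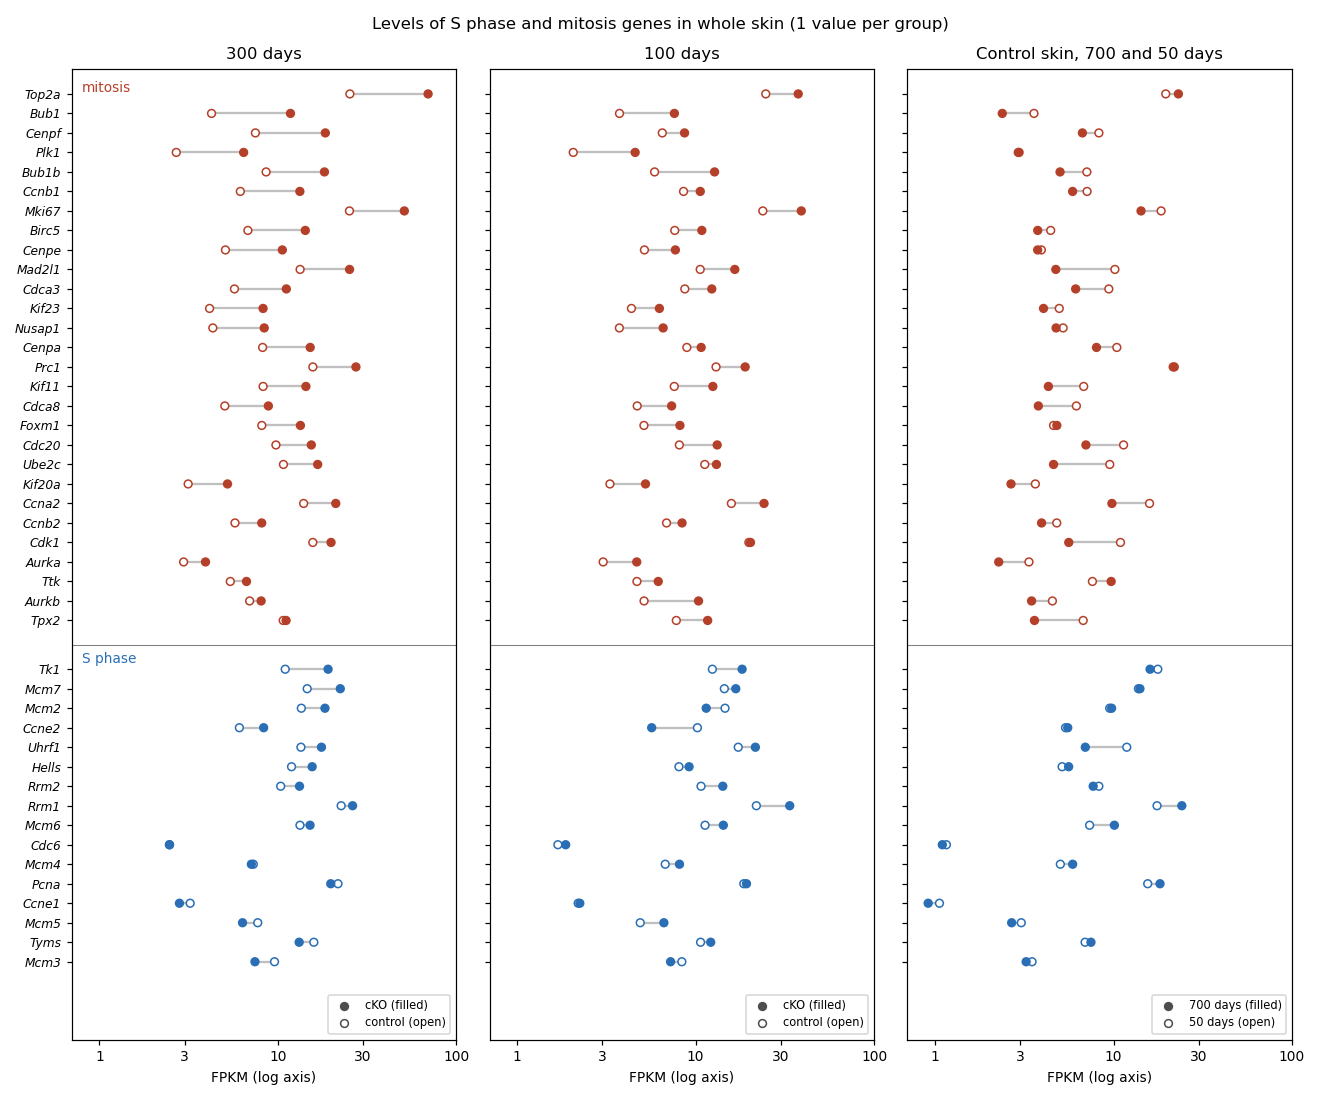
FPKM (log axis) of each of the 44 cell cycle genes, 1 row per gene with the mitosis genes in red above the S phase genes in blue, in 3 panels: 300 days and 100 days (cKO filled, control open) and control skin (700 days filled, 50 days open). There is 1 value per group and no error; every red filled point of the first 2 panels lies right of its open point, with Top2a farthest right at 300 days (69.6 FPKM in cKO and 25.4 FPKM in control skin), and 24 of 28 lie left of it in the third panel.

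Top2a, the topoisomerase that untangles sister chromatids, was the mitosis gene with the largest difference at 300 days. It stood at 69.6 FPKM in cKO and 25.4 FPKM in control skin at 300 days, a log2 ratio of 1.42. Mki67, which coats mitotic chromosomes and is the standard marker of dividing cells, stood at 51.2 FPKM in cKO and 25.2 FPKM in control skin at the same age. Its log2 ratio of 0.99 lay just short of the size counted. Foxm1, a transcription factor that drives the late cell cycle genes, was at 13.4 FPKM in cKO and 8.13 FPKM in control skin. Each of these genes had its highest value of the 4 groups of 100 and 300 days in the 300-day cKO skin.

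The spindle checkpoint genes, whose products hold back anaphase until every chromosome is attached, differed widely from each other at 300 days. Bub1, a checkpoint kinase at the kinetochore, was at 11.8 FPKM in cKO and 4.25 FPKM in control skin (log2 ratio 1.28). Bub1b, which encodes BubR1 of the complex that inhibits the anaphase-promoting complex, was at 18.3 FPKM in cKO and 8.60 FPKM in control skin (log2 ratio 1.00). Mad2l1, another subunit of that inhibitor, was at 25.2 FPKM in cKO and 13.3 FPKM in control skin (log2 ratio 0.87). The fourth checkpoint gene stood apart from these: Ttk, which encodes the kinase Mps1 that starts the checkpoint signal, was at 6.68 FPKM in cKO and 5.42 FPKM in control skin, a log2 ratio of 0.26. Summed over the 4 genes, the level was 62.0 FPKM in cKO and 31.6 FPKM in control skin.

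The centromere and kinetochore genes had the largest summed ratio of the mitosis roles with more than 2 genes at this age, 2.13, with 44.3 FPKM in cKO and 20.8 FPKM in control skin. Cenpf, a large kinetochore protein made in G2, was at 18.5 FPKM in cKO and 7.49 FPKM in control skin (log2 ratio 1.20). Cenpe, the kinetochore motor that moves chromosomes to the spindle equator, was at 10.6 FPKM in cKO and 5.09 FPKM in control skin (log2 ratio 0.93). Cenpa, the histone H3 variant that marks centromeres, was at 15.2 FPKM in cKO and 8.22 FPKM in control skin (log2 ratio 0.81). All 3 were thus at a higher level in the cKO skin.

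The mitotic kinases and the chromosomal passenger complex, which corrects faulty attachments and guides cytokinesis, held both large and small differences. Plk1, the kinase that drives entry into mitosis and centrosome maturation, was at 6.43 FPKM in cKO and 2.70 FPKM in control skin (log2 ratio 1.01). The passenger subunit Birc5, or survivin, was at 14.3 FPKM in cKO and 6.80 FPKM in control skin (log2 ratio 0.97). Cdca8, or borealin, was at 8.85 FPKM in cKO and 5.05 FPKM in control skin (log2 ratio 0.70). The kinase of the same complex differed less than these subunits: Aurkb was at 8.06 FPKM in cKO and 6.95 FPKM in control skin (log2 ratio 0.19). Aurka, the kinase of the spindle poles, was at 3.93 FPKM in cKO and 2.97 FPKM in control skin (log2 ratio 0.32). Its activator Tpx2 had the smallest difference of all 28 genes, with 11.1 FPKM in cKO and 10.7 FPKM in control skin (log2 ratio 0.05).

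Among the mitotic cyclins and their kinase, the B-type cyclin Ccnb1 lay just short of a size of 1, with 13.3 FPKM in cKO and 6.17 FPKM in control skin at 300 days. Ccnb2, the other B-type cyclin, was at 8.13 FPKM in cKO and 5.76 FPKM in control skin (log2 ratio 0.43). Ccna2, the A-type cyclin that acts from S phase to early mitosis, was at 21.1 FPKM in cKO and 14.0 FPKM in control skin (log2 ratio 0.56). Cdk1, the kinase that these cyclins activate, differed less than they did, with 19.9 FPKM in cKO and 15.7 FPKM in control skin (log2 ratio 0.32).

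Genes of the anaphase-promoting complex and its relatives were higher by 0.59 to 0.86 on the log2 scale at 300 days. Cdca3, a trigger of mitotic entry, was at 11.2 FPKM in cKO and 5.72 FPKM in control skin. Cdc20, the activator of the complex, was at 15.4 FPKM in cKO and 9.76 FPKM in control skin. Ube2c, the ubiquitin-conjugating enzyme that works with it, was at 16.7 FPKM in cKO and 10.8 FPKM in control skin, and its locus overlaps the muscle gene Tnnc2 on the other strand. The spindle and midzone genes Kif23, Nusap1, Prc1, Kif11 and Kif20a had log2 ratios of 0.85, 0.82, 0.76, 0.73 and 0.59. Of these, the microtubule bundler Prc1 had the highest level, at 27.4 FPKM in cKO and 15.7 FPKM in control skin. The spindle motor Kif11 was at 14.4 FPKM in cKO and 8.27 FPKM in control skin.

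The S phase genes did not differ in 1 direction at 300 days. The largest difference was in Tk1, the thymidine salvage kinase, with 19.1 FPKM in cKO and 11.0 FPKM in control skin (log2 ratio 0.75). Its protein supplies thymidine phosphate, as does that of Tyms, which makes it from deoxyuridine phosphate and was at 13.2 FPKM in cKO and 15.9 FPKM in control skin (log2 ratio -0.26). These genes of 1 product pool thus differed in opposite directions. The ribonucleotide reductase subunits, which make deoxynucleotides, were both slightly higher, with Rrm2 at 13.2 FPKM in cKO and 10.4 FPKM in control skin and Rrm1 at 26.3 FPKM in cKO and 22.7 FPKM in control skin.

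The 6 Mcm genes, whose products form 1 ring-shaped helicase that opens the DNA, were split at 300 days. Mcm7 was at 22.4 FPKM in cKO and 14.6 FPKM in control skin (log2 ratio 0.58). Mcm2 was at 18.4 FPKM in cKO and 13.5 FPKM in control skin (log2 ratio 0.41). Mcm6 was at 15.2 FPKM in cKO and 13.3 FPKM in control skin (log2 ratio 0.18). The other 3 subunits were level or lower in the cKO skin, with log2 ratios of -0.03 for Mcm4, -0.25 for Mcm5 and -0.33 for Mcm3, the lowest of all 44 genes. Summed over the 6 subunits, the level was 76.8 FPKM in cKO and 66.1 FPKM in control skin. The row of Mcm7 includes the microRNA host region of Mir25 and Mir93, and the locus overlaps Cops6 and Ap4m1 on the other strand.

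Pcna, the sliding clamp of DNA polymerases, was at 19.8 FPKM in cKO and 21.7 FPKM in control skin at 300 days (log2 ratio -0.13). Cdc6, which loads the helicase in G1, was at 2.47 FPKM in both. Of the E-type cyclins, which open S phase, Ccne1 was at 2.81 FPKM in cKO and 3.23 FPKM in control skin, and Ccne2 was at 8.33 FPKM in cKO and 6.09 FPKM in control skin. The replication-coupled chromatin genes were both higher, with log2 ratios of 0.36 each. Uhrf1, which brings the maintenance methyltransferase to new DNA, was at 17.6 FPKM in cKO and 13.5 FPKM in control skin, and the remodeller Hells was at 15.6 FPKM in cKO and 11.9 FPKM in control skin.

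**Figure D2:**
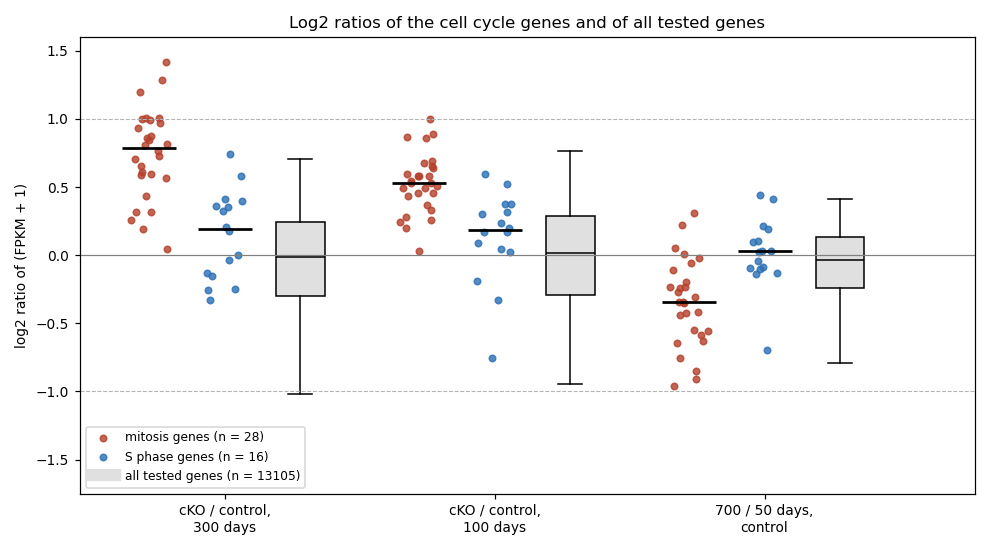
Log2 ratio of (FPKM + 1) in the 3 main comparisons, with 1 point per mitosis gene (red) and S phase gene (blue), a black line at each set's median, and a grey box for all 13105 genes compared (box from the lower to the upper quartile with the median, whiskers from the 5th to the 95th percentile). Dashed lines mark a size of 1; the mitosis medians lie at 0.79, 0.53 and -0.34 and the S phase medians at 0.19, 0.19 and 0.03.

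The promoters of the 2 sets differ in the short elements they hold. They are shown because the classes of cell cycle genes are defined by such elements, and the 3 mitosis and 3 S phase genes are those with the highest log2 ratio at 300 days whose promoter in the table holds at least 1 element. Each runs 5′ to 3′ from 250 bases before to 50 bases after the gene's start and comes from RefSeq on GRCm38.p6. Capitals mark the CHR (cell cycle genes homology region, TTTGAA), the CCAAT box bound by NF-Y, and the E2F forms TTCGCGC and TTGGCGC and TTCCCGC, each searched on both strands.
Top2a (chr11:99024140-99024439, minus strand): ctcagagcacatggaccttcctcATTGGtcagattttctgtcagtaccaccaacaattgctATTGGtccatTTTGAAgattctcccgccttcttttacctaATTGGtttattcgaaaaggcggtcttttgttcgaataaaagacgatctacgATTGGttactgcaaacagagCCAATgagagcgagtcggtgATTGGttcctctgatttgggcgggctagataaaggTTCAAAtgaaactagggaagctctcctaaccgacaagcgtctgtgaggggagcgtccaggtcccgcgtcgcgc
Bub1 (chr2:127831810-127832109, minus strand): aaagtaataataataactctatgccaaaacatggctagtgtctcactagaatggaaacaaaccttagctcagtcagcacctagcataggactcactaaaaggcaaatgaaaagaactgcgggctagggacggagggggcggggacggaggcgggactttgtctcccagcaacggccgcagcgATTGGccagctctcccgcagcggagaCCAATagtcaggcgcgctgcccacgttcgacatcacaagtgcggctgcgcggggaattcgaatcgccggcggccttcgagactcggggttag
Cenpf (chr1:189688037-189688336, minus strand): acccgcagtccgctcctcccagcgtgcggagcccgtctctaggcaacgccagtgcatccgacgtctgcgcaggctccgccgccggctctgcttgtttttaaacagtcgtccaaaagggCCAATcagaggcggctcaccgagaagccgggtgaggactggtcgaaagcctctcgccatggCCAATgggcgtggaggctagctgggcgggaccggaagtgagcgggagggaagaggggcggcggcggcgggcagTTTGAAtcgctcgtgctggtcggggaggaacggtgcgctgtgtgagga
Mcm7 (chr5:138171834-138172133, minus strand): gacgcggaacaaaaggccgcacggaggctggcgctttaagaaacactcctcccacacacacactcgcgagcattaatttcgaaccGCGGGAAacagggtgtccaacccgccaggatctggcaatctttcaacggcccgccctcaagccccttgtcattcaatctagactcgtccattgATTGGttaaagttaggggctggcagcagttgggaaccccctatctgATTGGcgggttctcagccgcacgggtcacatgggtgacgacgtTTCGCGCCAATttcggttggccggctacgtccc
Mcm2 (chr6:88898731-88899030, minus strand): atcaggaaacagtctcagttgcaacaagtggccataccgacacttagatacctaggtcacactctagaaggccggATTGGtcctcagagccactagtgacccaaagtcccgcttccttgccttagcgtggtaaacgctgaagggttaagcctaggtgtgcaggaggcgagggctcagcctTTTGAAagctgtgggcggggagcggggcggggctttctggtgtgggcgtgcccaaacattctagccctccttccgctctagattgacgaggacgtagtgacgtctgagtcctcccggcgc
Uhrf1 (chr17:56303087-56303386, plus strand): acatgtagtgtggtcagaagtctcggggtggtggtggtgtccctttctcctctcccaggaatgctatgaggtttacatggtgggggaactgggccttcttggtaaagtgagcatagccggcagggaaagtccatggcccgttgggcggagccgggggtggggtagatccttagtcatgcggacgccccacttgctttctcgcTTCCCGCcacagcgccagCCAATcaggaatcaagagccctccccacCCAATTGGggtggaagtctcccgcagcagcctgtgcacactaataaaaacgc
In these 6 sequences the search found 2 CHR copies and 6 CCAAT boxes for Top2a. Cenpf had 1 CHR copy and 2 CCAAT boxes, and Bub1 had 2 CCAAT boxes and no TTTGAA. Only TTTGAA was searched as the CHR, so other forms of the element were not looked for. For Mcm7 the search found 3 CCAAT boxes and 3 E2F matches. Uhrf1 had 3 CCAAT boxes and 1 E2F match, and Mcm2 had 1 CHR copy with 1 CCAAT box. Matches overlap in part: the last E2F matches of Mcm7 share bases with each other and with a CCAAT box, and a pair of CCAAT boxes of Uhrf1 on opposite strands share bases. A match is a run of letters, and whether a factor binds there was not measured.

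The promoter table held 38 of the 46 genes, 23 of the mitosis and 15 of the S phase set, and had no entry for Ccna2, Aurkb, Kif20a, Tpx2, Foxm1, Ccne2, Mcm4 and Gins2. The CHR was found in 17 of 23 mitosis promoters (73.9%) and in 1 of 15 S phase promoters (6.67%, Mcm2), beside 14.7% of the 9827 compared genes with a promoter and 20.2% of all 27025 genes in the table. An E2F form was found in 3 of 23 mitosis promoters (13.0%; Mki67, Cdk1 and Ccnb1) and in 9 of 15 S phase promoters (60%), beside 16.2% of the compared genes and 9.20% of all genes. The CCAAT box was found in 20 of 23 mitosis promoters (87.0%) and in 9 of 15 S phase promoters (60%), beside 42.3% of the compared genes and 41.1% of all genes. All 17 mitosis promoters with a CHR also held a CCAAT box, so 73.9% of the 23 held both. Both were found in 7.97% of all genes and in 6.04% of the compared genes. Of all 5466 genes with a CHR, 2155 also held a CCAAT box, and of the 1442 compared genes with a CHR, 594 did. The copy of the CHR nearest to the gene's start lay within 100 bases of it in 17 of 17 mitosis genes. The median place of this copy was 5 bases after the start. Only the short stretch around the start was searched, and the nearest of several copies was taken, which both favour small distances. The same share was not taken over all genes with a CHR, so a preferred place in mitosis promoters was not tested.

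**Figure D3:**
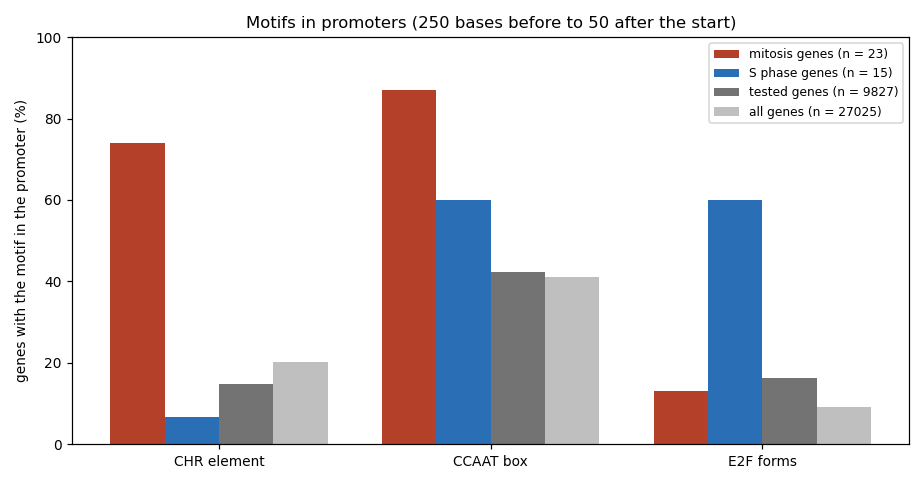
Percentage of genes whose promoter (250 bases before to 50 bases after the start) holds the CHR, the CCAAT box or an E2F form, for the mitosis genes, the S phase genes, all compared genes and all genes of the RefSeq table, as bars from 0. The CHR bar is tallest for the mitosis genes (73.9%) and the E2F bar is tallest for the S phase genes (60%).

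The mitosis genes were also compared by whether their promoter holds the CHR form searched, TTTGAA. The 17 with a CHR had median log2 ratios of 0.76 at 300 days, 0.49 at 100 days and -0.35 at 700 against 50 days, and the 6 without had 0.95, 0.55 and -0.21. The median was therefore larger in size without TTTGAA in both genotype comparisons and larger in size with it in the comparison by age. These medians rest on 17 and 6 genes with 1 value per group, and their difference was not tested. The 6 without TTTGAA are Ccnb1, Bub1, Mad2l1, Birc5, Cenpe and Nusap1, all of them higher in cKO skin by 0.82 or more at 300 days. Outside the 46 genes, 576 compared genes held both the CHR and the CCAAT box, and their median log2 ratios were 0.00, 0.06 and -0.07.

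At 100 days the 28 mitosis genes were again all higher in cKO than in control skin, beside 51.8% of all genes, with a median log2 ratio of 0.53 against 0.02 over all genes. None reached a size of 1 upwards or downwards, beside 2.36% and 4.36% of all genes, and 16 reached 0.5, beside 12.1%. When the groups were rescaled to equal totals, the median of all genes moved to -0.10, 8 mitosis genes reached 0.5 and 27 of 28 were higher, with Cdk1 the exception. The S phase genes had a median of 0.19; 13 were higher and 3 (Ccne2, Mcm2 and Mcm3) were lower, beside 48.1% of all genes. With equal totals the S phase median was 0.067, with 11 higher and 5 lower, Ccne1 and Pcna being added to the lower ones.

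The order of the mitosis genes at 100 days was not that at 300 days. Bub1b was first, with 12.8 FPKM in cKO and 5.89 FPKM in control skin and a log2 ratio just short of 1. Aurkb was second, with 10.4 FPKM in cKO and 5.14 FPKM in control skin (log2 ratio 0.89, against 0.19 at 300 days). Plk1 followed, with 4.58 FPKM in cKO and 2.06 FPKM in control skin (log2 ratio 0.87), and then Bub1, with 7.60 FPKM in cKO and 3.74 FPKM in control skin (log2 ratio 0.86). These genes belong to the checkpoint and to the kinases that act on attachment.

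Top2a was at 37.6 FPKM in cKO and 24.7 FPKM in control skin at 100 days (log2 ratio 0.58), and Mki67 was at 39.1 FPKM in cKO and 23.8 FPKM in control skin (log2 ratio 0.69). Cenpf was at 8.66 FPKM in cKO and 6.50 FPKM in control skin, a log2 ratio of 0.37 where it had been 1.20 at 300 days. Tpx2, which hardly differed at 300 days, was at 11.7 FPKM in cKO and 7.79 FPKM in control skin (log2 ratio 0.53). The smallest difference at 100 days was in Cdk1, with 20.3 FPKM in cKO and 19.9 FPKM in control skin (log2 ratio 0.03). The remaining 19 mitosis genes had log2 ratios between 0.20 (Ube2c) and 0.68 (Nusap1).

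Among the S phase genes at 100 days, Rrm1 and Tk1 reached a size of 0.5. Rrm1, the large subunit of ribonucleotide reductase, was at 33.7 FPKM in cKO and 21.9 FPKM in control skin (log2 ratio 0.60), and Tk1 was at 18.2 FPKM in cKO and 12.4 FPKM in control skin (log2 ratio 0.52). The cyclin gene Ccne2 was the only S phase gene lower by 0.5 or more, at 5.67 FPKM in cKO and 10.2 FPKM in control skin (log2 ratio -0.75), beside 15.1% of all genes. At 300 days it had been higher in the cKO skin, and Mcm2, at 11.5 FPKM in cKO and 14.6 FPKM in control skin at 100 days, also differed in opposite directions at the 2 ages. Pcna was again nearly level, at 19.3 FPKM in cKO and 18.6 FPKM in control skin.

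The genotype comparisons at the 2 ages share no samples. All 28 mitosis genes and 7 of the 16 S phase genes were higher in cKO skin at both ages, beside 31.9% of all genes. The log2 ratio was larger at 300 than at 100 days for 22 of the 28 mitosis genes and for 6 of the 16 S phase genes, beside 47.6% of all genes. Across the 44 genes the log2 ratios at the 2 ages had a Pearson correlation of 0.49 and a Spearman correlation of 0.54, as a description over genes that share libraries. Within the mitosis genes these were 0.26 and 0.27, and within the S phase genes 0.07 and 0.15, both below the value over the 2 sets together. Over all compared genes they were 0.34 and 0.38.

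**Figure D4:**
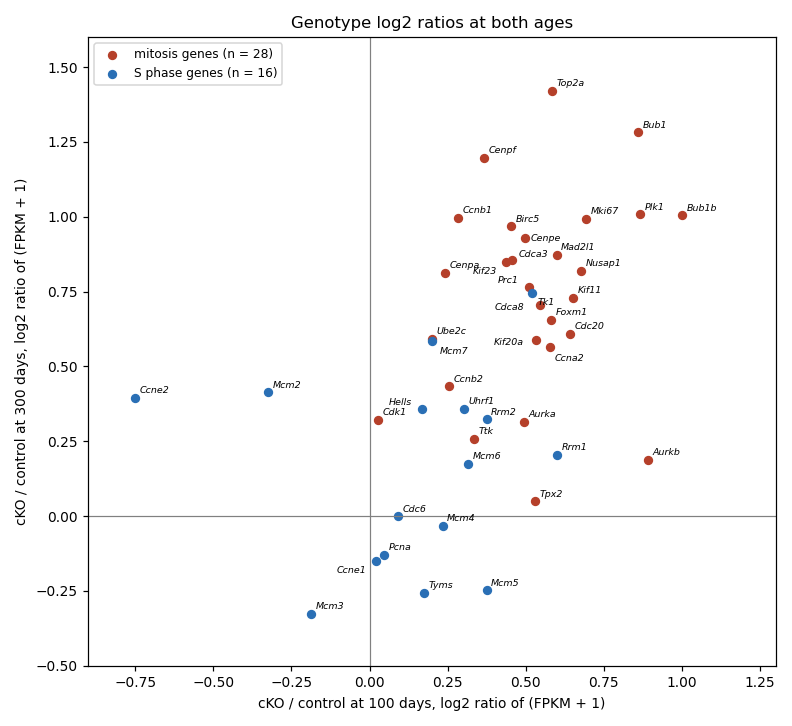
Log2 ratio of (FPKM + 1) of cKO against control skin at 100 days (x axis) and at 300 days (y axis), with 1 labelled point per gene, mitosis genes in red and S phase genes in blue. All mitosis genes lie above 0 on both axes, with Top2a uppermost (1.42) and Bub1b farthest right (just under 1), and the S phase gene Ccne2 lies farthest left (-0.75).

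Because all 28 mitosis genes were higher in cKO skin at both ages, their highest value over the 4 groups of 100 and 300 days could only lie in cKO skin. It lay there at 300 days for 20 of the 28 and at 100 days for the other 8. The highest value lay in cKO skin at 300 days for 27.7% of all genes and for 5 of the 16 S phase genes. Those could also have it in a control group, so their shares are not a like comparison for the 20 of 28. The 28 mitosis levels summed to 462 FPKM in cKO and 249.7 FPKM in control skin at 300 days, a ratio of 1.85, and to 356 FPKM in cKO and 241 FPKM in control skin at 100 days, a ratio of 1.48. The 16 S phase levels summed to 215 FPKM in cKO and 185 FPKM in control skin at 300 days, and to 203 FPKM in cKO and 174 FPKM in control skin at 100 days, a ratio of 1.16 at both ages. The mitosis sum was thus 2.15 times the S phase sum in cKO skin at 300 days, 1.35 times in its control, 1.76 times in cKO skin at 100 days and 1.38 times in that control. In the other pair of control groups it was 1.31 times at 700 days and 1.76 times at 50 days, so a ratio of 1.76 was found in control skin too.

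**Figure D5:**
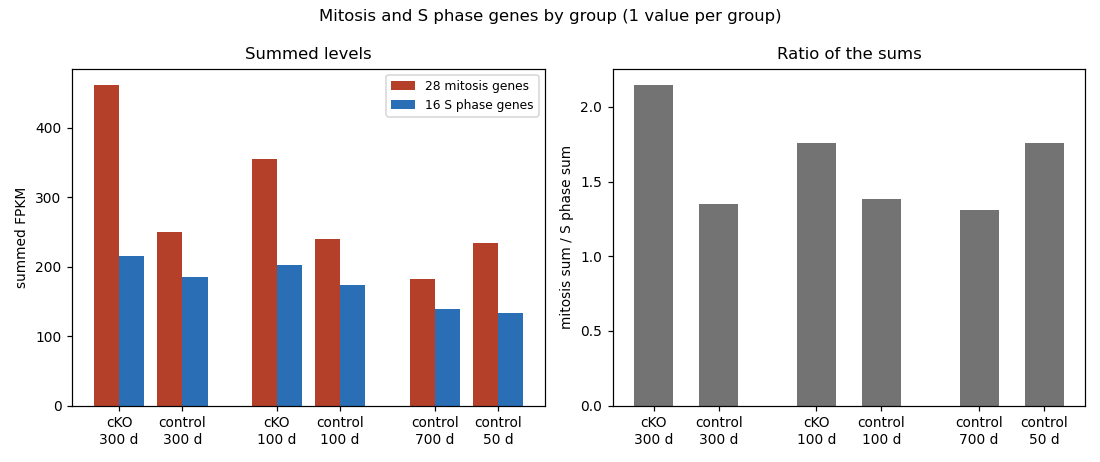
Left, summed FPKM of the 28 mitosis genes (red) and the 16 S phase genes (blue) in the 6 groups, and right, the mitosis sum divided by the S phase sum, as bars from 0 with 1 value per group. The mitosis bar is tallest in cKO skin at 300 days (462 FPKM) and shortest in control skin at 700 days (183 FPKM), and the ratio runs between 1.31 in control skin at 700 days and 2.15 in cKO skin at 300 days.

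In control skin of 700 against 50 days, 24 of the 28 mitosis genes were lower, beside 55% of all genes, with a median log2 ratio of -0.34 against -0.03 over all genes. None was lower or higher by a size of 1, beside 3.24% and 0.717% of all genes, and 9 were lower by 0.5 or more, beside 11%. The S phase genes had a median of 0.03, with 9 higher, beside 44.8% of all genes, and 7 lower, and 1 (Uhrf1) was lower by 0.5 or more. With equal totals the S phase median was 0.13, with 10 higher and 6 lower, and the median of all genes was 0.06. The mitosis levels summed to 183 FPKM at 700 and 234 FPKM at 50 days, and the S phase levels to 139 FPKM at 700 and 133 FPKM at 50 days.

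Mad2l1 had the largest difference with age, at 4.75 FPKM at 700 and 10.2 FPKM at 50 days (log2 ratio -0.96). Ube2c followed, at 4.61 FPKM at 700 and 9.53 FPKM at 50 days (log2 ratio -0.91). The skeletal muscle markers, which include the gene Tnnc2 that overlaps Ube2c, summed to 94.1 FPKM at 700 and 3850 FPKM at 50 days, and their part in the Ube2c value was not tested. Cdk1 was at 5.61 FPKM at 700 and 10.9 FPKM at 50 days (log2 ratio -0.85), and Tpx2 was at 3.60 FPKM at 700 and 6.76 FPKM at 50 days (log2 ratio -0.75). Cdk1 and Tpx2 were among the mitosis genes that differed least between cKO and control skin at 300 days. Ccna2, Cdc20, Cdca8, Cdca3 and Kif11 were lower by 0.55 to 0.65 on the same scale.

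The 4 mitosis genes that were not lower at 700 days were Ttk, Top2a, Foxm1 and Plk1. Ttk was at 9.70 FPKM at 700 and 7.61 FPKM at 50 days (log2 ratio 0.31), and Top2a was at 23.1 FPKM at 700 and 19.6 FPKM at 50 days (log2 ratio 0.23). Foxm1, at 4.81 FPKM at 700 and 4.61 FPKM at 50 days, and Plk1, at 2.96 FPKM at 700 and 2.92 FPKM at 50 days, were level. Mki67, by contrast with Top2a, was at 14.3 FPKM at 700 and 18.5 FPKM at 50 days (log2 ratio -0.35). The common markers of dividing cells therefore differed in opposite directions with age.

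Of the S phase genes, Uhrf1 was at 6.95 FPKM at 700 and 11.9 FPKM at 50 days (log2 ratio -0.69). The S phase genes with the largest differences upwards were Rrm1, at 24.1 FPKM at 700 and 17.5 FPKM at 50 days (log2 ratio 0.44), and Mcm6, at 10.1 FPKM at 700 and 7.34 FPKM at 50 days (log2 ratio 0.41). Pcna was at 18.2 FPKM at 700 and 15.5 FPKM at 50 days. The other 12 S phase genes had log2 ratios between -0.14 (Tk1) and 0.19 (Mcm4). In all, 3 of 16 S phase genes were higher in cKO skin at both ages and lower at 700 than at 50 days, beside 14.4% of all genes. For the mitosis genes this count is the same 24 of 28 that were lower at 700 days, since all 28 were higher in cKO skin at both ages.

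Within 1 genotype, 300 and 100 days of age could be compared as well. These comparisons share their groups with the genotype comparisons and are not independent of them. In cKO skin, 20 of the 28 mitosis genes were higher at 300 days, beside 52.7% of all genes, with a median log2 ratio of 0.32. Cenpf alone reached a size of 1 upwards and none did downwards, beside 2.53% and 1.66% of all genes, with 18.5 FPKM at 300 and 8.66 FPKM at 100 days. In control skin, 16 of the 28 were higher at 300 days, beside 54.6% of all genes, with a median of 0.08 that turned to -0.10 when groups were rescaled to equal totals. None of them differed by a size of 1 upwards or downwards, beside 3.64% and 1.09% of all genes. The S phase medians were 0.07 in cKO skin and 0.14 in control skin.

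Genes of the same processes outside the 46 were set beside them, in lists that were also chosen with earlier results of these data known. In a list of 74 further mitosis gene symbols, of which 68 were compared, 61 were higher in cKO skin at 300 days, beside 48.6% of all genes, and 62 at 100 days, beside 51.8%, with medians of 0.53 and 0.41. At 700 against 50 days 57 were lower, beside 55% of all genes, with a median of -0.24. At 300 days 4 of them (5.88%) reached a size of 1 upwards, beside 2.01% of all genes, and none downwards, beside 5.28%. These were Kif14, a midzone motor, with 18.8 FPKM in cKO and 3.29 FPKM in control skin, the spindle protein gene Ckap2, with 9.05 FPKM in cKO and 2.25 FPKM in control skin, the cytokinesis kinase gene Cit, with 10.5 FPKM in cKO and 4.18 FPKM in control skin, and the spindle assembly gene Dlgap5, with 12.5 FPKM in cKO and 5.24 FPKM in control skin. None reached that size at 100 days, where Kif14 was at 5.02 FPKM in cKO and 5.80 FPKM in control skin.

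In a list of 50 further replication genes, of which 49 were compared, the medians were 0.19 at 300 days, 0.21 at 100 days and 0.00 at 700 against 50 days. At 300 days 2 of the 49 (4.08%) reached a size of 1, beside 2.01% of all genes, the repair gene Brca1, with 7.21 FPKM in cKO and 2.52 FPKM in control skin, and Gins1, a subunit of the replicative helicase complex, with 4.31 FPKM in cKO and 1.58 FPKM in control skin. The list thus lay near the S phase genes in its medians. Replication-dependent histone genes, which are transcribed in S phase, had medians of 0.24 at 300 days, 0.46 at 100 days and -0.52 at 700 against 50 days over the 51 of 64 compared. Of these 51, 2 were higher and 2 lower by a size of 1 at 300 days (3.92% each), beside 2.01% and 5.28% of all genes. At 100 days 6 were higher (11.8%) and 2 lower (3.92%), beside 2.36% and 4.36%. At 700 days none was higher and 7 were lower (13.7%), beside 0.717% and 3.24%. Their levels summed to 2233 FPKM in cKO and 1535 FPKM in control skin at 100 days, and to 728 FPKM at 700 and 1124 FPKM at 50 days. Many histone genes are near-identical copies that share reads, so single members are uncertain.

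Markers of skin cell types differed between the same groups. The 14 basal keratinocyte markers were all higher in cKO skin at 300 days, beside 48.6% of all genes. At 100 days 13 of them were higher, beside 51.8%. Their medians were 0.60 and 0.42, and they summed to 2805 FPKM in cKO and 1885 FPKM in control skin at 300 days. At 700 against 50 days their median was 0.08. Markers of the hair matrix and growing follicle had medians of 0.60 at 300 days, 0.90 at 100 days and -0.38 at 700 against 50 days over 24 genes. They summed to 2979 FPKM in cKO and 2443 FPKM in control skin at 300 days. At 100 days the sums were 5328 FPKM in cKO and 1845 FPKM in control skin, and in the other pair 687 FPKM at 700 and 956 FPKM at 50 days. In cKO skin of 300 against 100 days their median was -0.09, where that of the mitosis genes was 0.32. Control skin at 300 days stood apart in lymphocyte markers. There, the 14 B cell markers had a median level of 12.9 FPKM, where it was 0.0999 FPKM in cKO skin of that age. Such genes reach a mean of 1 FPKM mainly through that control group, so a count of them past a size is not given. The 14 genes of that list summed to 16.6 FPKM in cKO and 451 FPKM in control skin, with 4 of the 14 listed at 0 in the cKO skin. T cell markers summed to 24.0 FPKM in cKO and 198 FPKM in control skin at 300 days. At 100 days the B cell sums were 11.3 FPKM in cKO and 14.9 FPKM in control skin. Markers of stressed keratinocytes had medians of 1.57 at 300 days, 0.99 at 100 days and 1.44 at 700 against 50 days over 8 genes. All 10 adipocyte markers were lower in each of the 3 comparisons, beside 51.3%, 48.1% and 55% of all genes, with medians of -1.25, -1.73 and -1.54. They summed to 2670 FPKM in cKO and 5528 FPKM in control skin at 300 days. At 100 days the sums were 2397 FPKM in cKO and 7538 FPKM in control skin, and in the other pair 293 FPKM at 700 and 1074 FPKM at 50 days. The 12 markers of simple and glandular epithelium had medians of -2.72, -3.93 and -1.21, with sums of 59.9 FPKM in cKO and 205 FPKM in control skin at 300 days and of 74.2 FPKM in cKO and 553 FPKM in control skin at 100 days. In the same order of comparisons the medians were -1.21, -0.50 and -1.003 for macrophage markers, 0.28, 0.38 and -0.12 for hair follicle stem cell markers, -0.03, 0.32 and -0.49 for sebocyte markers, and 0.06, -0.72 and -5.22 for skeletal muscle markers. For fibroblast markers they were -0.21, -0.27 and -0.68, and for endothelial markers -0.53, -0.57 and -0.47. FPKM is a share of the RNA sequenced, in which all these cells take part. The part of these cell types in the mitosis and S phase values was not tested.

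Transcript length was set beside the ratios. Across the 28 mitosis genes, the Spearman correlation of the log2 ratio at 300 days with the length of the longest coding transcript was 0.38, and across all genes with a length it was 0.09, both as descriptions over genes. It was 0.23 at 100 days and 0.06 at 700 against 50 days for the mitosis genes, and -0.09, 0.12 and 0.38 for the 16 S phase genes in the 3 comparisons, so its size and sign were not the same throughout. With all genes split by length into 4 classes of equal size, the 6 mitosis genes in the longest class had a median of 0.96 at 300 days, against 0.04 for all genes of that class. The 7 mitosis genes in the shortest class had a median of 0.61, against -0.08 for all genes of that class, and the medians of the classes between were 0.68 against -0.02 and 0.82 against 0.01.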

How the data were processed

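RNA of whole skin was measured in 20 samples, sorted into 6 groups by genotype and source name. Per the labels' protocols, ribosomal RNA was removed with 1 of 2 kits, with no kit named per sample, and directional libraries were read for 75 cycles. HISAT2, Cufflinks and Cuffdiff were run with mm10, per the submitters' processing notes. Tool versions, the annotation, the use of strand in counting and how the samples of a group were joined are not given in the sources used here. As deposited, the authors' values are FPKM, in 1 column per group and 46744 rows. In tables of this kind a 0 may come from a failed estimate. No value per sample entered, so depth is unknown and no interval or floor is given.

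Log2 ratios were taken of FPKM with a pseudocount of 1 in Python 3.11.15 with pandas 2.3.3 and numpy 2.4.6, and correlations with scipy 1.17.1. Genes compared had at least 1 symbol that is not a predicted-gene, Rik, LOC, microRNA, small nucleolar RNA or 5S rRNA name, and averaged 1 FPKM or more. Rows with several symbols were kept. The design had planned limma on values per sample and, for 1 value per group, counts past a fixed size, which were used. The text names all 46 genes, and from other lists up to 4 genes past a size of 1 in a comparison. Not every gene that this rule names is given. Lists held cell cycle genes, sex-linked genes and markers of cell types. The counting was tested on simulated data.

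Overlapping genes came from GENCODE release M21 on GRCm38 and promoters from RefSeq on GRCm38.p6. The members and lists were chosen with earlier results of these data known, and transcript length was looked at after the values were seen. Results were recomputed with pseudocounts of 0.1 and 0.5, without a minimum level and with one of 5 FPKM, after rescaling to 1 common median or to equal totals (TPM), with single-symbol rows only, and with the rows of a symbol summed.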

Additional observations from a re-analysis of the deposited data

How the results depend on the processing

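All 28 mitosis genes stayed higher in cKO skin at 300 days under every alternative that kept them, and their median ran from 0.79 to 0.84. At 100 days the median ran from 0.44 to 0.60, and at 700 against 50 days from -0.38 to -0.26. Counts at a size of 1 moved because several genes lay beside it. At 300 days 5 mitosis genes became 9 with a pseudocount of 0.1 and 8 with 0.5 or with a common median (Mki67, Ccnb1 and Birc5 in each, and Cenpe with 0.1). At 100 days 0 became 4 with a pseudocount of 0.1 (Bub1b, Plk1, Bub1 and Aurkb) and 1 with 0.5 or with a common median. At 700 against 50 days the count lower went from 0 to 2 (Mad2l1 and Ube2c) with a pseudocount of 0.1 and to 1 with 0.5. In cKO skin of 300 against 100 days the 1 gene higher (Cenpf) became 0 with a common median and with equal totals. The S phase median of control skin at 300 against 100 days, 0.14, turned to -0.042 with equal totals, which moved the median of all genes to -0.15; the cause was not tested. Equal totals also moved the S phase median at 100 days, 0.19, to 0.067, and that at 700 against 50 days, 0.03, to 0.13. In all, 150 of the recomputed counts at that size stayed within 1.5 times the reported count and 10 did not. The only reported counts above 0 were the 5 mitosis genes at 300 days and the 1 in cKO skin of 300 against 100 days. Most of the 150 were thus counts of 0 that stayed 0 and say little about stability. No paired analysis was possible because the table holds 1 value per group, and for the same reason no sample could be left out and no replicate block fitted. With 1 value per group, neither sampling error nor the spread between mice can be given for any gene.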

Other observations

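A mixed list of E2F and Rb family genes, their partners and G1 regulators had smaller medians than the mitosis genes. The difference between the lists was not tested. Over the 29 genes of this list, the median log2 ratio of cKO against control skin was 0.13 at 300 days and 0.11 at 100 days. That of 700 against 50 days was -0.08. At 300 days 20 of the 29 were higher, beside 48.6% of all genes, and 8 (E2f3, Mycn, Lin9, E2f8, E2f7, E2f2, Ccnd2 and Cdc25a) were higher by 0.5 or more (27.6%), beside 10.6%. At that age 9 were lower, beside 51.3% of all genes, 3 of them by 0.5 or more. At 100 days 18 were higher, beside 51.8% of all genes, and 5 were higher by 0.5 or more (17.2%), beside 12.1%. Lower by 0.5 or more were 2 (6.90%), beside 15.1%. E2f3, an activator of S phase genes, was at 10.9 FPKM in cKO and 3.25 FPKM in control skin at 300 days. It was the only one past a size of 1 there (3.45%), beside 2.01% of all genes higher and 5.28% lower. Mycn, a growth regulator of the Myc family, was at 0.318 FPKM at 700 and 1.77 FPKM at 50 days.

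The 7 genes for inhibitors of cyclin-dependent kinases had medians of -0.04 at 300 days, 0.28 at 100 days and -0.10 at 700 against 50 days. Of these, Cdkn2a was higher and Cdkn2c lower by a size of 1 in cKO skin at both ages, each 14.3% of the 7. Of all genes, 2.01% were higher and 5.28% lower by that size at 300 days, and 2.36% and 4.36% at 100 days. Cdkn2a, the locus of p16 and Arf, was at 3.45 FPKM in cKO and 0.178 FPKM in control skin at 300 days, and at 1.44 FPKM in cKO skin at 100 days, where it is listed at 0 in the control. In control skin it was at 387 FPKM at 700 and 0.0545 FPKM at 50 days. The 387 FPKM is 1 value for a group of 4 samples and lies far above every other group, and the part of each sample in it is unknown. In the other groups Cdkn2a was low, so its genotype ratios rest on low levels. Cdkn2c, which encodes p18, was at 8.09 FPKM in cKO and 18.8 FPKM in control skin at 300 days, and at 9.56 FPKM in cKO and 24.5 FPKM in control skin at 100 days. With 1 value per group none of these differences could be tested.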
